A study of Mus musculus with 69 samples.

Results

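Livers of mice in which hepatocytes were labelled as carrying the JNK7b spliceoform state were compared with livers labelled JNK7a, at clock hours 8 and 11 (both in the morning). The rule took every library of these groups at these hours, which gave 11 of the 69 libraries of the series: 5 JNK7b libraries (3 at hour 8 and 2 at hour 11) and 6 JNK7a libraries (3 at each hour). All mice were C57/Bl6J with the genotype label J1 J2 lf/lf and were kept on a high-fat diet (HFD). JNK7a is tied by the labels to the recombinase Cre (CRE) and JNK7b to the recombinase FLPo (FLPO), so the groups differ in that protein too. A control group, tied to green fluorescent protein (GFP), had 6 libraries at these hours and is given beside the results as context only. How the proteins were delivered, the age and sex of the mice, the light schedule and whether each library is a separate animal are not stated in the labels, so the p-values measure the spread between these libraries, which may be technical. The design text calls the animals hepatocyte-specific JNK spliceoform mice, but whole liver RNA was sequenced, in which fewer cells of a type and less RNA per cell cannot be told apart.

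The c-Jun N-terminal kinases JNK1 (gene Mapk8) and JNK2 (gene Mapk9) respond to stress, cytokines and excess fatty acids and phosphorylate transcription factors such as c-Jun. A choice between alternative exons in each transcript changes a stretch of the kinase domain near the substrate-binding region, and the resulting spliceoforms are named 7a and 7b. In the liver of mice on a fat-rich diet, JNK activity is known to affect lipid storage, insulin response and the hormone output of hepatocytes.

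The sequences below show the pair of exons from which the group names come, since the comparison is between states of this exon choice. Both genes hold 1 pair of coding exons of 72 bases that are never joined in the same annotated transcript and share both neighbouring exons (GENCODE M21 on mm10). In Mapk8 the upstream exon lies at chr14:33390673-33390744 and the downstream exon at chr14:33390242-33390313, both on the minus strand. In Mapk9 they lie at chr11:49873836-49873907 and chr11:49874264-49874335, on the plus strand. Each is written 5′ to 3′ along the transcript, and capitals mark the bases that differ between the exons of a pair.
Mapk8 upstream exon: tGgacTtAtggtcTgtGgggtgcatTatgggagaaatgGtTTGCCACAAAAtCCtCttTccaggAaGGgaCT
Mapk8 downstream exon: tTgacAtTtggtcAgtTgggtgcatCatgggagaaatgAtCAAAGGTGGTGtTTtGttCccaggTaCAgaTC
Mapk9 upstream exon: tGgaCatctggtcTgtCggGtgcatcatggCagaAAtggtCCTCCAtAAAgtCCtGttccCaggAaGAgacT
Mapk9 downstream exon: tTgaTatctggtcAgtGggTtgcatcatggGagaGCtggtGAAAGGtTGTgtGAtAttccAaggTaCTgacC
The exons of the Mapk8 pair differ at 27 of 72 bases (62.5% identical) and those of the Mapk9 pair at 25 (65.3% identical). The upstream exons of both genes are 81.9% identical to each other and the downstream exons 79.2%. Most of the differing bases lie in the 3′ portion of each exon. The sources used here do not say which of these exons is 7a or 7b, nor whether a group keeps or loses the exon it is named after. The deposited values are per gene and add transcripts with either exon, so they check the amount of each kinase transcript and not the exon choice.

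Mapk9 (chr11:49846751-49886421, plus strand) was higher in JNK7b. It was at 58.0, 61.3 and 63.8 normalised CPM (the estimated counts of a gene scaled to a common library size) at hour 8 and 63.0 and 61.8 CPM at hour 11. In JNK7a it ranged from 28.9 to 42.5 CPM with a median of 38.7, so the groups did not overlap. The log2 fold change was 0.73 ± 0.096 (standard error; adjusted p = 0.000809, Benjamini-Hochberg adjustment of edgeR's quasi-likelihood p, as for all adjusted p-values of this comparison). Control libraries ranged from 14.2 to 54.3 CPM (median 49.5), below every JNK7b library. Mapk8 (chr14:33377898-33447158, minus strand) was at 14.1, 20.2, 15.8, 17.8 and 16.2 CPM in JNK7b and at 9.54 to 15.9 CPM in JNK7a. Its groups overlapped, and its log2 fold change of 0.42 ± 0.15 missed the threshold (adjusted p = 0.123).

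At these hours JNK7b livers differed from JNK7a livers in members of the lipid droplet, interferon and xenobiotic lists. A gene is said to have risen or fallen where its adjusted p was below 0.05. Of 15080 genes tested, 857 (5.68%) were called, of which 503 (3.34%) were higher and 354 (2.35%) lower in JNK7b. The shares of 3.34% and 2.35% apply beside the counts of every list below, and a few calls are not a result about a list. At least 2-fold changes were found for 248 genes that were higher (1.64%) and 70 that were lower (0.464%). Over all genes tested, the groups did not overlap for 448 genes higher (2.97%) and 388 genes lower (2.57%) in JNK7b. They did not overlap in 586 of the 857 called genes, and 855 of them had the same sign at both hours. On the scale of the deposited TPM values, which are scaled by transcript length and to a common sum, limma called 503 higher and 93 lower of 11382 genes, that is 84.4% higher against 58.7% on the count scale. The median log2 fold change of all genes tested was 0.133 there and 0.00372 on the count scale. The main count fell to 426 without JNK7b 11 h replicate 2 and to 494 without JNK7b 11 h replicate 1, the only JNK7b libraries of that hour. The total counts of the 11 libraries ran from 26830000 to 34340000. JNK7b 8 h replicate 3 stood apart from the rest (its median correlation with the other libraries of its group was 0.9575, the lowest of the 11), and JNK7a 8 h replicate 2 was low in several interferon genes. Without both libraries 678 genes were called, 402 higher and 276 lower, of which 561 were among the 857.

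**Figure D1:**
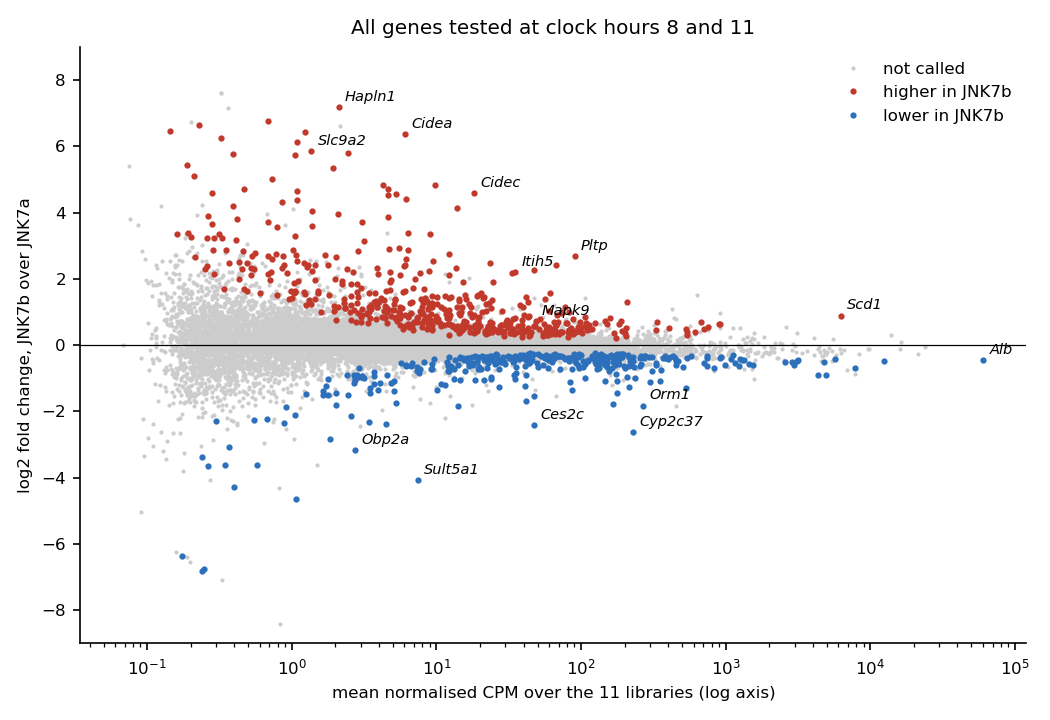
Every gene tested, with the mean normalised CPM over the 11 libraries on a log axis and the log2 fold change of JNK7b over JNK7a. Red points are the 503 genes called higher and blue points the 354 called lower. The higher side reaches further from 0, with 248 genes changed at least 2-fold against 70 on the lower side.

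Several genes were nearly silent in JNK7a and clearly expressed in JNK7b. Slc9a2, a sodium-proton exchanger of the gut epithelium, was at 2.20, 2.25, 1.17, 5.64 and 3.47 CPM in the JNK7b libraries (hour 8 first). It stayed at or below 0.123 CPM in every JNK7a library and 0.0367 CPM in every control library (adjusted p = 3.75e-05). The JNK7b libraries thus all lay above those of the other groups. Cdhr2, a protocadherin of the intestinal brush border, had means of 5.27 ± 2.80 CPM (SD, n = 5) in JNK7b and 0.0987 ± 0.101 CPM (SD, n = 6) in JNK7a (adjusted p = 0.000134). Cdx4, a homeobox factor of the caudal family, averaged 2.35 CPM against 0.0306 CPM (adjusted p = 0.000217). Catsperg2, an auxiliary subunit of the sperm calcium channel, averaged 4.14 against 0.0932 CPM and had no count in any control library (adjusted p = 0.000694). Slc19a3, a thiamine transporter, averaged 2.27 against 0.0387 CPM (adjusted p = 0.00174), but was at only 0.189 CPM in JNK7b 8 h replicate 3. Hapln1, a link protein of hyaluronan matrix, was at 2.33 to 9.41 CPM in JNK7b and at most 0.0994 CPM in JNK7a (adjusted p = 4.56e-05), while control libraries held 0.139 to 2.64 CPM. Fold changes are not given for these genes because the JNK7a level is near 0. Of the 503 genes called higher, 26 had at least 1 CPM in every JNK7b library and less than 1 CPM in every JNK7a library. Of these, 17 were also below 1 CPM in every control library. Slc19a3, Cdx4 and Cdhr2 are not among the 26, since JNK7b 8 h replicate 3 held 0.189, 0.567 and 0.946 CPM of them. The opposite pattern held for 1 called gene, Obp2a, an odorant-binding lipocalin.

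Other genes, apart from the immunoglobulin segments given last, had a measurable level in JNK7a and rose strongly. Atp6v0e2 (chr6:48537615-48541801), a subunit of the proton pump that acidifies lysosomes, was at 12.0, 11.2, 5.36, 11.4 and 14.6 CPM in JNK7b. JNK7a libraries ranged from 0.369 to 0.629 CPM and control libraries from 0.484 to 0.918 CPM. The rise was 4.57 ± 0.23 on the log2 scale (adjusted p = 8.07e-07), with no overlap. Ntrk2 (chr13:58806569-59133970), the receptor for brain-derived neurotrophic factor, was at 12.5, 20.2, 31.4, 19.4 and 20.4 CPM in JNK7b and at 0.434 to 1.07 CPM in JNK7a, with a log2 fold change of 4.84 ± 0.27 (adjusted p = 9.55e-07). Control lay between them, at 1.77 to 10.6 CPM. Pltp (chr2:164839518-164857711), the phospholipid transfer protein of plasma lipoproteins, was at 160, 128, 181, 205 and 165 CPM in JNK7b. It ranged from 22.9 to 36.3 CPM in JNK7a (2.69 ± 0.15, adjusted p = 9.55e-07). Itih5 (chr2:10153571-10256529), a hyaluronan-binding heavy chain of the inter-alpha-trypsin inhibitor family, was at 66.1, 60.3, 28.9, 73.6 and 73.6 CPM in JNK7b against 8.33 to 17.8 CPM in JNK7a (2.21 ± 0.20, adjusted p = 6.86e-05). Kif22, a kinesin of the mitotic spindle, averaged 8.98 against 0.305 CPM (4.82 ± 0.66, adjusted p = 0.0019). No gene of the cell cycle and DNA replication list passed the test (0 of 36), but 31 of the 36 were positive, with a median log2 fold change of 0.358. Cyp2d12, a cytochrome P450 whose reads may be shared with its close relatives, averaged 9.67 against 0.373 CPM (4.71 ± 0.48, adjusted p = 2e-04). The immunoglobulin segments Ighv1-15 and Igkv16-104 averaged 2.69 and 2.29 CPM in JNK7b and 0.0273 and 0.0852 CPM in JNK7a. The segment Ighv1-4 had the opposite direction, with means of 0.0773 against 1.91 CPM, and JNK7a 8 h replicate 1 was its highest library at 8.38 CPM. Such segments are near-identical and uncertain one by one.

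**Figure D2:**
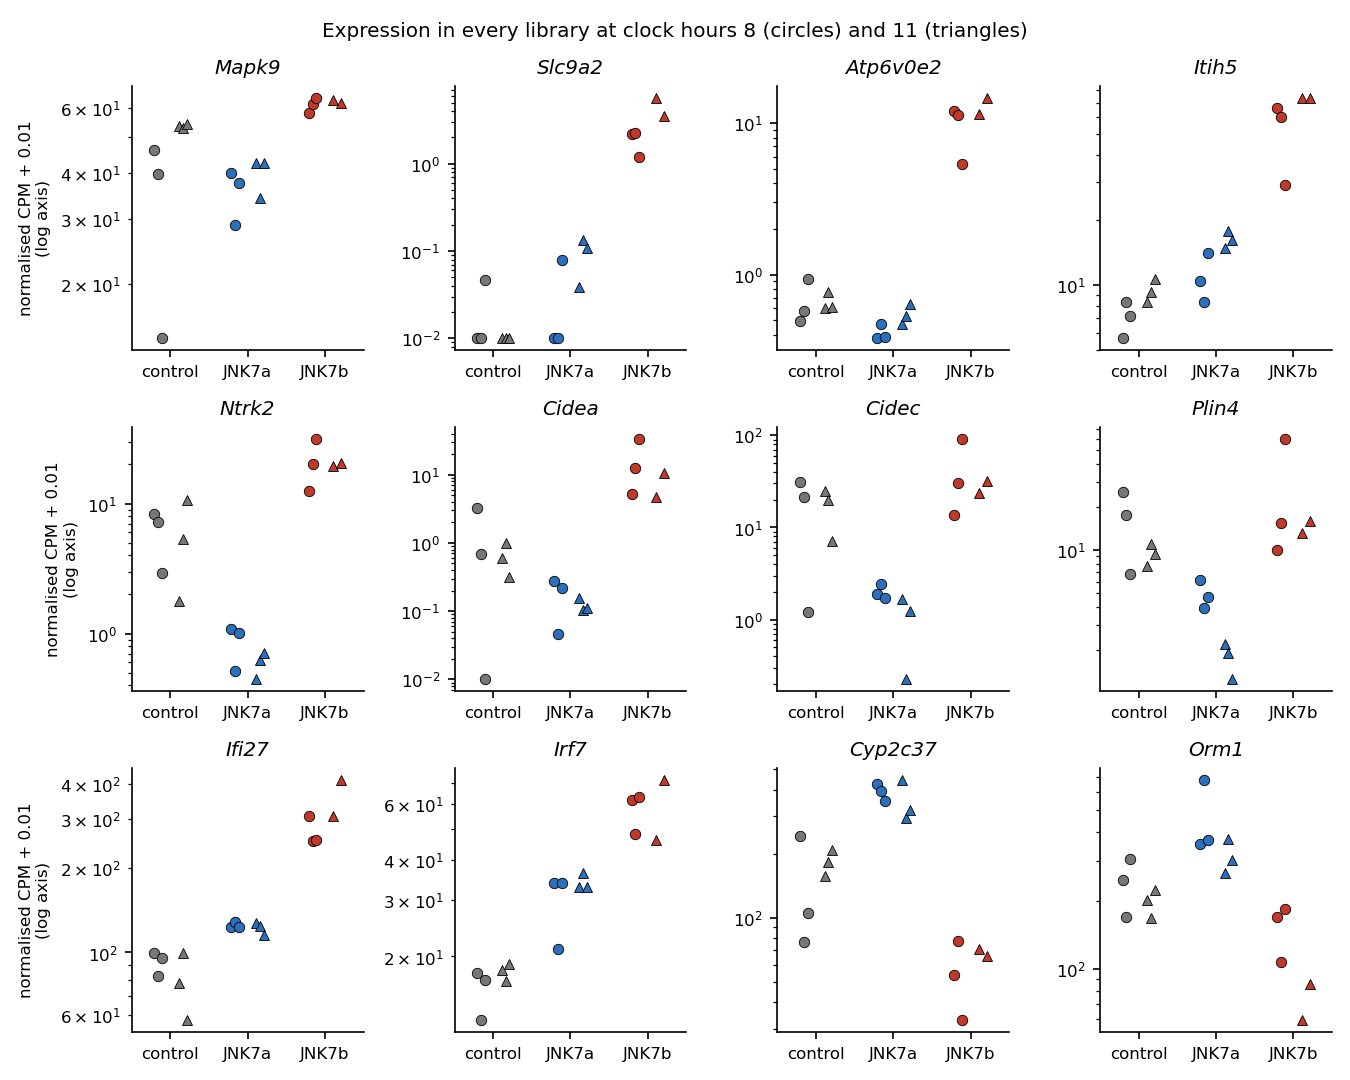
Normalised CPM plus 0.01 on log axes for 12 genes, with a point for each library (circles, hour 8; triangles, hour 11) in control, JNK7a and JNK7b. JNK7b lies above every JNK7a library for Mapk9, Slc9a2, Atp6v0e2, Itih5, Ntrk2, Cidea, Cidec, Plin4, Ifi27 and Irf7, and below every JNK7a library for Cyp2c37 and Orm1.

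The largest falls held several enzymes and secreted proteins of the liver. Sult5a1, a sulfotransferase, was at 2.16, 1.5, 0.063, 0.121 and 0.518 CPM in JNK7b and at 6.45 to 18.6 CPM in JNK7a. The groups did not overlap, and the log2 fold change was -4.06 ± 0.69 (adjusted p = 0.00831). Cyp2c37 (chr19:39992424-40012243), an epoxygenase of the Cyp2c family, was at 53.5, 77.9, 32.8, 71.3 and 66.0 CPM against 293 to 444 CPM (-2.62 ± 0.21, adjusted p = 4.56e-05). Control held 77.0 to 241 CPM, below every JNK7a library and at its lowest just under the highest JNK7b library. Ces2c, a carboxylesterase, fell from 75.0 ± 13.6 CPM (SD, n = 6) to 14.3 ± 4.56 CPM (SD, n = 5), a log2 change of -2.41 ± 0.21 (adjusted p = 7.49e-05). Orm1, the acute phase protein orosomucoid, was at 170, 107, 184, 59.3 and 86.0 CPM against 266 to 680 CPM (-1.83 ± 0.22, adjusted p = 0.000782). Obp2a averaged 0.499 against 4.64 CPM (-3.16 ± 0.70, adjusted p = 0.0245), and JNK7a 8 h replicate 3 was its highest library at 14.3 CPM. Hnf4aos, an RNA antisense to the hepatocyte factor Hnf4a, averaged 0.882 against 3.95 CPM (adjusted p = 0.00813), and whether reads were counted by strand is not given. Slc35f2, Ugt2b38, Atp8b5, Serpine2 and Phlda3 completed the 12 largest falls, with log2 changes between -2.84 and -1.81. All 5 lost their call without at least 1 of the 11 libraries (adjusted p of up to 0.116 for Slc35f2, 0.137 for Ugt2b38, 0.0608 for Atp8b5, 0.0951 for Serpine2 and 0.117 for Phlda3), as did Obp2a (0.0714) and Ighv1-4 (0.118).

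Genes of lipid droplets, triglyceride synthesis and lipid uptake changed in both directions. Of 43 tested members of that list, 13 rose and 6 fell, with a median log2 fold change of 0.187 against 0.00372 for all genes. The list summed to 10670 to 12520 CPM in JNK7b and 11660 to 13540 CPM in JNK7a, ranges that overlap. Cidea, a protein that fuses lipid droplets and is known as a marker of fatty liver, was at 5.26, 12.4, 33.3, 4.76 and 10.6 CPM in JNK7b. It was at 0.0358 to 0.268 CPM in JNK7a and at 0 to 3.25 CPM in control. The groups did not overlap, and the log2 fold change was 6.36 ± 0.58 (adjusted p = 0.000123). Cidec (chr6:113424634-113435760), of the same family, was at 13.7, 30.6, 91.1, 23.8 and 32.1 CPM against 0.215 to 2.43 CPM (4.59 ± 0.54, adjusted p = 0.00117). Control ranged from 1.21 to 31.3 CPM for Cidec, so 5 of its 6 libraries lay above every JNK7a library. Mogat1, which makes diacylglycerol from monoacylglycerol, averaged 9.39 ± 3.85 CPM (SD, n = 5) against 0.632 ± 0.373 CPM (SD, n = 6), a rise of 3.87 ± 0.54 (adjusted p = 0.0019). Plin4, a perilipin of lipid droplets, was at 9.96, 15.3, 59.6, 13.0 and 16.0 CPM against 1.23 to 6.10 CPM (2.74 ± 0.43, adjusted p = 0.00494). The highest value of Cidea, Cidec and Plin4 was in each case that of JNK7b 8 h replicate 3, and the other 4 JNK7b libraries still lay above all JNK7a libraries. Plin2, the main perilipin of hepatocytes, averaged 912 against 618 CPM (0.55 ± 0.11, adjusted p = 0.0116). Fitm1, which takes part in droplet budding, averaged 55.2 against 23.8 CPM (1.21 ± 0.16, adjusted p = 0.000866). In control, Plin4 ranged from 6.72 to 25.3 CPM, above every JNK7a library, Plin2 from 478 to 857 CPM and Mogat1 from 0.999 to 6.05 CPM. Fitm1 averaged 47.6 CPM in control, between the groups. Lpin2, a phosphatidate phosphatase, averaged 204 against 118 CPM (0.81 ± 0.13, adjusted p = 0.00336), and Slc27a1, a fatty acid transporter, 8.54 against 4.65 CPM (0.90 ± 0.19, adjusted p = 0.0138). The other members that rose were Plin5, Gpat3, Gpam, Lpin1 and Apol9a.

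The 6 members of that list that fell have other roles in lipid handling. Fabp2, a fatty acid binding protein, averaged 52.1 against 109 CPM and did not overlap between groups (-1.12 ± 0.16, adjusted p = 0.00172). Slc27a5, which activates bile acids and long-chain fatty acids, averaged 569 against 827 CPM (-0.54 ± 0.081, adjusted p = 0.00172), and Apob, the structural protein of very low density lipoprotein, 4840 against 6480 CPM (-0.43 ± 0.080, adjusted p = 0.00805). Lipe, Dgat2 and Slc27a2 were the rest. The list had 7 members that rose without JNK7b 11 h replicate 2, and 8 without JNK7a 11 h replicate 2 or replicate 3. It had 3 that fell without either JNK7b 11 h library. Plin5, Gpat3, Gpam, Lpin1 and Apol9a each lost their call on leaving out 1 library (adjusted p of up to 0.128 for Plin5, 0.127 for Lpin1, 0.112 for Gpam and 0.111 for Apol9a), as did Slc27a1 without JNK7b 11 h replicate 2 (0.0642). So did Lipe (up to 0.0915), Dgat2 (0.0568) and Slc27a2 (0.123) among those that fell. With no filter on low counts 8 members rose, and without both JNK7b 8 h replicate 3 and JNK7a 8 h replicate 2 there were 11 that rose and 4 that fell.

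The list for making fatty acids held fewer calls, all of them higher in JNK7b. Of 31 tested members of the de novo lipogenesis list, 5 rose and none fell, with a median of 0.309. They were Acacb, which makes malonyl-CoA at the mitochondrion (85.3 against 39.4 CPM, 1.04 ± 0.21, adjusted p = 0.0133), Scd1, the stearoyl-CoA desaturase (8550 against 4350 CPM, 0.89 ± 0.23, adjusted p = 0.0466), Elovl5, Insig2 and Pnpla5. Scd1 was at 16600 CPM in JNK7b 8 h replicate 3 and at 6070 to 7730 CPM in the other JNK7b libraries, against 2950 to 5400 CPM in JNK7a. Elovl5 lost its call without any of 8 single libraries (adjusted p of up to 0.11) and Scd1 without any of 7 (0.108). So did Insig2 without any of 6 (0.0941) and Pnpla5 without JNK7b 11 h replicate 2 (0.0591). Only 1 member rose without JNK7b 11 h replicate 2, and 3 without JNK7b 11 h replicate 1, JNK7b 8 h replicate 3 or any single JNK7a 8 h library. Of 44 genes of fatty acid oxidation and PPARα targets, 3 rose and none fell: the aldehyde dehydrogenase Aldh3a2 (854 against 532 CPM, 0.69 ± 0.14, adjusted p = 0.0136), Ehhadh of peroxisomal oxidation and the acyl-CoA thioesterase Acot2, whose groups all overlapped. That count was 1 without JNK7a 8 h replicate 2 or either JNK7b 11 h library, 5 without JNK7b 8 h replicate 1, and 0 without both JNK7b 8 h replicate 3 and JNK7a 8 h replicate 2. In the cholesterol synthesis list 1 of 27 rose, the sterol desaturase Sc5d (830 against 610 CPM, 0.49 ± 0.12, adjusted p = 0.0305), a call lost on leaving out any of 5 single libraries, the JNK7a 8 h libraries and JNK7b 8 h replicates 1 and 2 (adjusted p of up to 0.0602). The cholesterol count was 2 without JNK7a 11 h replicates 1 or 2 and 3 without JNK7b 11 h replicate 1. Over all genes tested 3.34% rose, and the few calls of the oxidation and cholesterol lists are given as single genes. Markers of adipocytes, which would carry lipid droplet genes of their own, gave 0 calls among 6 tested and summed to 4259 to 5980 CPM in JNK7b and 3810 to 4976 CPM in JNK7a, ranges that overlap. Their part in these results was not tested.

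Interferon-response genes gave the most calls of the lists described, and all of those were higher in JNK7b. By share of members other lists had more, such as 6 of 12 hepatocyte markers, all lower. Type I interferon acts through factors that include STAT2 and IRF9 on the interferon-stimulated response element (ISRE) of its target genes, and IRF7 amplifies the response. Of 52 tested members, 20 rose and none fell, with a median log2 fold change of 0.705, while 3.34% of all genes tested rose. The groups did not overlap for 19 of the 52, all higher in JNK7b, against 2.97% of all genes. Ifi27, an interferon-induced membrane protein, was at 308, 251, 253, 306 and 413 CPM in JNK7b. In JNK7a it ranged from 115 to 129 CPM and in control from 57.2 to 99.7 CPM. All JNK7b libraries were thus above the rest, and the log2 fold change was 1.31 ± 0.11 (adjusted p = 3.61e-05). Irf7 was at 61.8, 48.3, 63.3, 46.4 and 71.4 CPM against 21.1 to 36.4 CPM (0.88 ± 0.14, adjusted p = 0.00345). Control held 12.6 to 18.9 CPM of Irf7, below every JNK7a library. Stat2 averaged 69.0 ± 3.13 CPM (SD, n = 5) against 44.3 ± 5.02 CPM (SD, n = 6), a rise of 0.64 ± 0.087 (adjusted p = 0.000908). Cmpk2, a mitochondrial nucleotide kinase, averaged 24.4 against 10.3 CPM (1.24 ± 0.15, adjusted p = 0.000426). Psmb9, a subunit of the immunoproteasome, averaged 30.0 against 15.2 CPM (1.03 ± 0.10, adjusted p = 0.000108). Usp18, which removes ISG15 and damps the receptor, averaged 32.3 against 12.4 CPM (1.44 ± 0.28, adjusted p = 0.0129, 0.0526 without JNK7b 11 h replicate 2), Isg15 itself 20.2 against 10.5 CPM (0.99 ± 0.16, adjusted p = 0.00284) and Ifit3 23.2 against 12.9 CPM (0.85 ± 0.18, adjusted p = 0.0156). JNK7a 8 h replicate 2 held the lowest JNK7a values of Irf7 (21.1 CPM) and Usp18 (3.97 CPM). Without that library 18 members were called, without JNK7b 11 h replicate 2 there were 13, and without JNK7a 8 h replicate 1 there were 28.

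The promoters of 3 of these genes are shown to give examples of a short motif resembling the core of the ISRE. They were chosen for holding it. Each runs from 250 bases before to 50 bases after the transcript start on the gene's strand (RefSeq, GRCm38.p6), and capitals mark every match to GAAANNGAAA on either strand, with overlapping matches merged.
Stat2 promoter, chr10:128270248-128270547, plus strand: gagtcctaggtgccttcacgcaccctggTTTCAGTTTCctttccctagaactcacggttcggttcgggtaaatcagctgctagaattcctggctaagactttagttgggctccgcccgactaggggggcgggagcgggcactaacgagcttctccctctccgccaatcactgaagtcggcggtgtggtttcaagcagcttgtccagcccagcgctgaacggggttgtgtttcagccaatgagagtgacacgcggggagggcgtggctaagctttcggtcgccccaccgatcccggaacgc
Isg15 promoter, chr4:156200769-156201068, minus strand: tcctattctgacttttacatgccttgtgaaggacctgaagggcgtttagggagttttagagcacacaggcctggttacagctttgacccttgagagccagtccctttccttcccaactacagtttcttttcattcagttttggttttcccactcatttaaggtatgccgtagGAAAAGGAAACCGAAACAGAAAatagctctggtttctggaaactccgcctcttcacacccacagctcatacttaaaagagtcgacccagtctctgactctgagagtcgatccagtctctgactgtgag
Ifit3 promoter, chr19:34583279-34583578, plus strand: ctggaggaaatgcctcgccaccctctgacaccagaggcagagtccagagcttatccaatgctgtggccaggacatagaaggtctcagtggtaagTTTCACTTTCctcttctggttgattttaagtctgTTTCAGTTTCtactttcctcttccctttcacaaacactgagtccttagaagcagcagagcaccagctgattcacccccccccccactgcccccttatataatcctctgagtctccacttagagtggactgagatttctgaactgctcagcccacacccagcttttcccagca
The promoters of Isg15 and Ifit3 hold more than 1 match. Of the 20 interferon genes that rose, 14 had a promoter in the table, and 7 of these (50.0%) held the motif. Among the members tested but not called, 13 of 24 (54.17%) held it, so the motif was about as frequent in both. Over all tested genes the share was 442 of 11161 (3.96%), over all genes that rose 29 of 372 (7.8%) and over all that fell 11 of 283 (3.89%). A match describes these letters only and is not a measured binding site.

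Of 27 tested members of the antigen presentation list, 5 rose and none fell, with a median of 0.294. They were the class I genes H2-Q1, H2-T23 and H2-T22, whose reads may be shared with relatives, and both subunits of the peptide transporter, Tap1 and Tap2. H2-T22, a non-classical class I molecule, was at 133, 131, 135, 147 and 147 CPM in JNK7b and at 82.8 to 98.6 CPM in JNK7a (0.60 ± 0.068, adjusted p = 0.000274), with no overlap. Tap1, which carries peptides into the endoplasmic reticulum, averaged 45.2 against 26.3 CPM (0.81 ± 0.11, adjusted p = 0.000741). Tap2, its partner subunit, averaged 31.8 against 23.8 CPM (0.45 ± 0.092, adjusted p = 0.0136, 0.0591 without JNK7b 11 h replicate 2). The count was 2 without JNK7b 11 h replicate 2, 8 without JNK7a 8 h replicate 1, and 3 without JNK7b 11 h replicate 1, JNK7a 8 h replicates 2 or 3 or any JNK7a 11 h library. The interferon list summed to 2215 to 2607 CPM in JNK7b libraries, 1291 to 1904 CPM in JNK7a libraries and 1088 to 1297 CPM in control libraries.

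Markers of immune cells, which also express interferon genes, are given beside these lists. Of 29 markers of Kupffer cells, macrophages and dendritic cells 0 were called, and they summed to 348.1 to 497.1 CPM in JNK7b and 244.4 to 511.5 CPM in JNK7a. However, 26 of the 29 had a positive log2 fold change, with a median of 0.39 against 0.00372 for all genes. Of 26 markers of T and NK cells only Cd4 was called, and it fell (0.814 against 2.33 CPM, adjusted p = 0.0281, up to 0.103 without single libraries). Their sums were 15.09 to 24.27 CPM and 10.91 to 26.35 CPM, and 23 of the 26 were positive, with a median of 0.458. Of 22 B and plasma cell markers only Igha was called, and it rose (adjusted p = 0.0443, up to 0.112 without single libraries). Their sums were 193.3 to 482.5 CPM in JNK7b and 63.32 to 411 CPM in JNK7a, and 14 of the 22 were positive, with a median of 0.358. Of 12 neutrophil markers only 3 were high enough to test, none was called, and the defining marker Ly6g was at 0 in all 11 libraries. The sums overlap between groups for the Kupffer, T cell and B cell lists, and the part of these cells in the interferon result was not tested.

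Xenobiotic enzymes moved in both directions. The nuclear receptors CAR (encoded by Nr1i3) and PXR sense drugs and bile products and induce cytochromes P450 and conjugating enzymes. Of 36 tested members of their target list, 3 rose and 7 fell. Cyp2b10, the classic CAR target, was at 13.3, 11.4, 6.15, 21.8 and 11.6 CPM in JNK7b and at 0 to 1.88 CPM in JNK7a (4.41 ± 0.76, adjusted p = 0.00885). Control held at most 0.661 CPM, so JNK7b lay above both groups. Nr1i3 itself was lower in JNK7b, 63.5 ± 9.60 against 105 ± 31.3 CPM (SD, n = 5 and n = 6), a log2 change of -0.73 ± 0.17 (adjusted p = 0.03, up to 0.0668 without single libraries). The other members that rose were Cyp2d12 and the imprinted long RNA Meg3. Besides Nr1i3, those that fell were Cyp2c37, its relative Cyp2c50 (301 against 731 CPM, adjusted p = 0.0138, 0.0528 without JNK7b 11 h replicate 2), Sult5a1, Cyp2a5, Gstt1 and the carboxylesterase Ces2a (78.5 against 125 CPM, -0.66 ± 0.11, adjusted p = 0.00436). The number that fell was 3 without JNK7b 11 h replicate 2, and 4 without JNK7b 11 h replicate 1, JNK7b 8 h replicate 2 or JNK7a 11 h replicate 1.

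Genes of bile acid synthesis and transport were lower where they changed. Of 34 tested members none rose and 6 fell, with a median of -0.147. Baat, which joins bile acids to taurine, was at 181, 196, 192, 155 and 168 CPM in JNK7b and at 247 to 317 CPM in JNK7a (-0.66 ± 0.069, adjusted p = 0.000134). The groups did not overlap, and control lay at 251 to 269 CPM, above every JNK7b library. Akr1c6, a hydroxysteroid dehydrogenase, averaged 760 against 1170 CPM (-0.61 ± 0.10, adjusted p = 0.00341). Slc10a1, the sodium-dependent bile acid importer, averaged 380 against 498 CPM (-0.37 ± 0.091, adjusted p = 0.0318, up to 0.113 without single libraries). Akr1d1, Acox2 and Slc27a5 were the rest. The count was 3 without JNK7a 11 h replicate 1, JNK7b 11 h replicate 1 or JNK7b 11 h replicate 2. On the TPM scale the list's median was 0.0161, which was 0.117 below that of all genes on that scale.

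Hepatocytes near the central vein are known for drug metabolism and glutamine synthesis. Of 25 pericentral genes tested, 2 rose and 6 fell. Glul, the glutamine synthetase of the last layer of cells around the vein, rose to 980, 1120, 1290, 1100 and 1130 CPM from 568 to 787 CPM in JNK7a (0.64 ± 0.10, adjusted p = 0.00264). Rhbg, an ammonium transporter of the same cells, averaged 11.2 against 6.22 CPM (0.85 ± 0.18, adjusted p = 0.0169, 0.0747 without JNK7b 11 h replicate 2). Cyp2e1, which oxidises ethanol, averaged 3280 against 6250 CPM (-0.91 ± 0.15, adjusted p = 0.00296). Cyp1a2, which metabolises caffeine, averaged 214 against 460 CPM (-1.08 ± 0.15, adjusted p = 0.00102). None of these 4 genes overlapped between groups. The number that fell was 3 without JNK7b 11 h replicate 2, which also left 1 that rose. Of 25 periportal genes, the albumin gene Alb fell and no other was called, while 3 fell without JNK7b 8 h replicate 1.

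Sex-biased liver genes changed in small numbers. Of 30 tested genes known as higher in female mice, 6 rose and 1 fell, with a median of 0.428. Ntrk2 is among the 6, with Cyp17a1, a steroid hydroxylase (24.9 against 7.14 CPM, 1.90 ± 0.27, adjusted p = 0.00189), Rtn4, a reticulon (115 against 65.6 CPM, 0.80 ± 0.13, adjusted p = 0.0037), the organic anion transporter Slc22a29, Sult2a2 and Aqp8. Fmo1, a flavin monooxygenase, fell (adjusted p = 0.0341, up to 0.0951 without single libraries). Only 3 rose without JNK7b 11 h replicate 1. Of 43 genes known as higher in males, 1 rose and 2 fell, with a median of -0.357, while 3.34% of all genes tested rose and 2.35% fell. The one that rose was Treh, a trehalase (4.33 against 0.805 CPM, 2.31 ± 0.32, adjusted p = 0.00111), and Ugt2b38 and Keg1 fell. The number that fell was 5 without JNK7a 8 h replicate 1, 4 without JNK7b 8 h replicate 1 and 1 without any of 8 other libraries (all but JNK7b 8 h replicate 3). The labels give no sex.

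Plasma proteins made by the liver were mostly lower where they changed. Of 37 acute phase and NF-kB genes, 7 fell and none rose. Saa4, a constitutive serum amyloid of lipoproteins, was at 144, 166, 118, 156 and 181 CPM in JNK7b and at 283 to 336 CPM in JNK7a (-0.999 ± 0.10, adjusted p = 0.000146), with no overlap. Lbp, which binds bacterial lipopolysaccharide, averaged 51.7 against 72.6 CPM (-0.50 ± 0.10, adjusted p = 0.0147). Orm1, the fibrinogen chains Fga, Fgb and Fgg, and Serpina3m were the rest. The count was 3 without either JNK7b 11 h library, and 4 without JNK7a 8 h replicate 2 or JNK7a 11 h replicates 2 or 3. The list's median of -0.1 became 0.0838 on the TPM scale, 0.049 below that of all genes there. In the complement and coagulation list 5 of 35 fell and 1, C1s1, rose. Mbl1, a mannose-binding lectin, averaged 115 against 173 CPM (-0.61 ± 0.11, adjusted p = 0.00775), and Kng1, the kininogen, 1170 against 1700 CPM (-0.56 ± 0.11, adjusted p = 0.00956). Without JNK7a 11 h replicate 1 or either JNK7b 11 h library 3 fell, and C1s1 was not called without JNK7b 11 h replicate 2 (0.055).

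Hormone-like factors secreted by the liver showed the same tendency in 5 of 37 genes, while 1 rose. Inhbc, an activin subunit, was at 60.0, 46.6, 47.2, 35.9 and 47.3 CPM in JNK7b and at 85.1 to 155 CPM in JNK7a (-1.35 ± 0.14, adjusted p = 0.000182). Fetub, the hepatokine fetuin-B, averaged 182 against 393 CPM (-1.13 ± 0.13, adjusted p = 0.000377). Rbp4, the retinol carrier, averaged 2070 against 2970 CPM (-0.52 ± 0.095, adjusted p = 0.00768). Neither group overlapped the other for these 3 genes. Lcat, which esterifies cholesterol in plasma, also fell, and Itih5 was the member that rose. Lcat lost its call without any of 9 single libraries (adjusted p of up to 0.1). Without JNK7b 11 h replicate 1 the number that fell was 3, and without JNK7b 8 h replicate 1 the number that rose was 3.

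Common markers of hepatocytes were lower too. Of 12 tested, 6 fell and none rose, with a median of -0.377: Alb, Apoa1, Apob, Ttr, Trf and Fgb. Ttr, the thyroxine carrier, averaged 3900 ± 184 CPM (SD, n = 5) against 5480 ± 828 CPM (SD, n = 6), a log2 change of -0.50 ± 0.098 (adjusted p = 0.00975). Alb averaged 50700 against 68500 CPM and overlapped between groups (-0.45 ± 0.10, adjusted p = 0.0229, up to 0.059 without single libraries). The 12 markers summed to 85570 to 107000 CPM in JNK7b and 106400 to 145100 CPM in JNK7a. These ranges overlap, and Apob and Fgb are also members of lists above. The part of hepatocyte content in the plasma protein, bile acid and P450 results above was not tested. The number that fell was 3 without JNK7b 8 h replicate 2, JNK7a 11 h replicate 2 or JNK7b 11 h replicate 2, and 3 on the TPM scale. In the amino acid, urea cycle and one-carbon list 5 of 36 fell and 1, Glul, rose. Tdo2, which opens the tryptophan ring, averaged 1210 against 1830 CPM (-0.58 ± 0.093, adjusted p = 0.00264), and Gnmt, a glycine methyltransferase, 612 against 1000 CPM (-0.69 ± 0.13, adjusted p = 0.00831). Leaving out single libraries gave 2 to 8 that fell, with 2 without JNK7b 11 h replicate 2, JNK7a 8 h replicates 1 or 2 or JNK7a 11 h replicates 1 or 3, and 8 without JNK7b 8 h replicate 1.

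Lysosomal genes were looked at as a list only after Atp6v0e2 and Arsg had been seen among the strongest changes, so the list is a description. Of 65 tested members 7 rose and 3 fell, with a median of 0.0396, while 3.34% of all genes tested rose and 2.35% fell. Arsg, a lysosomal sulfatase that degrades heparan sulfate, was at 85.7, 85.0, 76.6, 89.5 and 76.4 CPM in JNK7b and at 12.2 to 20.4 CPM in JNK7a (2.26 ± 0.13, adjusted p = 9.55e-07). Galns, another sulfatase, averaged 13.4 ± 1.66 against 2.97 ± 0.795 CPM (SD, n = 5 and n = 6; 2.17 ± 0.18, adjusted p = 3.61e-05). Grn, the progranulin gene, averaged 158 against 98.9 CPM (0.67 ± 0.065, adjusted p = 7.49e-05). None of these 3 genes overlapped between groups. The cathepsins Ctsa and Ctss rose as well, while Ctsh and Ids fell by less than 0.5 on the log2 scale. Ctsa lost its call without either JNK7b 11 h library (adjusted p of up to 0.0637) and Ctss without any of 9 single libraries (0.145). None of the list's 3 falls was called without JNK7b 11 h replicate 2 or JNK7b 8 h replicate 2, and 1 was without JNK7b 11 h replicate 1, JNK7a 8 h replicate 3, JNK7b 8 h replicates 1 or 3 or JNK7a 11 h replicates 1 or 3.

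Of 28 tested genes of the JNK pathway, 4 rose and none fell. They were Mapk9 and the phosphatase genes Dusp8, Dusp16 and Dusp6. Dusp8, a phosphatase of JNK and p38, was at 2.23, 1.46, 4.79, 2.76 and 2.54 CPM in JNK7b and at 0.0715 to 0.436 CPM in JNK7a (3.59 ± 0.46, adjusted p = 0.000658). Dusp16, which prefers JNK, averaged 45.3 ± 1.65 against 33.5 ± 2.63 CPM (SD, n = 5 and n = 6; 0.44 ± 0.075, adjusted p = 0.00465), while control held 36.1 to 49.5 CPM. Dusp6, which acts on ERK, overlapped between groups (0.50 ± 0.13, adjusted p = 0.0405, up to 0.125 without single libraries). Of 27 AP-1 and immediate early genes, 4 rose and none fell. Jun, which encodes the substrate the kinases are named after, was at 39.7, 22.7, 49.1, 24.8 and 23.9 CPM in JNK7b and at 5.20 to 19.8 CPM in JNK7a (1.56 ± 0.27, adjusted p = 0.00662). Atf3, a stress-induced factor, averaged 3.71 against 0.954 CPM (1.94 ± 0.35, adjusted p = 0.007), Btg2 15.8 against 6.56 CPM (1.16 ± 0.22, adjusted p = 0.00831) and Jund 72.6 against 50.2 CPM (0.54 ± 0.11, adjusted p = 0.0152, up to 0.0528 without either JNK7b 11 h library). Jun and Jund did not overlap between groups, whereas Atf3 and Btg2 did. Control averaged 25.1 CPM of Jun, 1.51 CPM of Atf3, 12.0 CPM of Btg2 and 70.7 CPM of Jund, in each case between the groups.

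Of 26 clock genes and output factors, 2 rose and none fell, while 3.34% of all genes tested rose and 2.35% fell. The calls are given as single genes. Noct, the rhythmic deadenylase-like phosphatase nocturnin, was at 121, 162, 47.7, 135 and 137 CPM in JNK7b and at 13.2 to 35.9 CPM in JNK7a (2.43 ± 0.35, adjusted p = 0.00355). The groups did not overlap, and control lay at 23.2 to 77.5 CPM. Per1, a repressor of the clock, averaged 15.8 against 5.37 CPM with overlap (1.47 ± 0.31, adjusted p = 0.0177) and lost its call without JNK7a 11 h replicate 2 or 3 (up to 0.0506). Among the others the smallest adjusted p-values were those of Hlf (0.093) and Rora (0.0958).

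Other lists held few calls, given beside the 3.34% of all genes tested that rose and the 2.35% that fell. In the glycogen and glucose list, whose counts depend on single libraries, 2 of 32 rose, among them Ppp1r3g, and 1 fell, Ugp2, which makes UDP-glucose (259 against 435 CPM, -0.76 ± 0.13, adjusted p = 0.00374). The number that rose was 4 without JNK7a 8 h replicate 1 or JNK7b 8 h replicate 1, and 1 without JNK7a 8 h replicate 2, JNK7b 8 h replicate 3 or any single library of hour 11. The number that fell was 2 without JNK7a 8 h replicate 3 or JNK7a 11 h replicate 3. In the unfolded protein list Eif2ak4 rose (up to 0.0591 without either JNK7b 11 h library) and Xbp1 fell (148 against 205 CPM, -0.47 ± 0.12, adjusted p = 0.0338, up to 0.113 without single libraries). In the redox list Prdx1, a peroxiredoxin, fell (581 against 885 CPM, -0.62 ± 0.084, adjusted p = 0.000909), with Gpx1 and with Sod2 (adjusted p = 0.0264, up to 0.0761 without single libraries). In the matrix list Ccn2 rose (6.44 against 2.99 CPM, adjusted p = 0.0368, up to 0.126 without single libraries). Heat shock, insulin signalling, oxidative phosphorylation and cell cycle lists had 0 calls with edgeR. With DESeq2 they had 2, 2, 3 and 3. Of the endothelial, stellate and cholangiocyte markers 0 were called, and of the red blood cell markers only Bpgm.

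**Figure D3:**
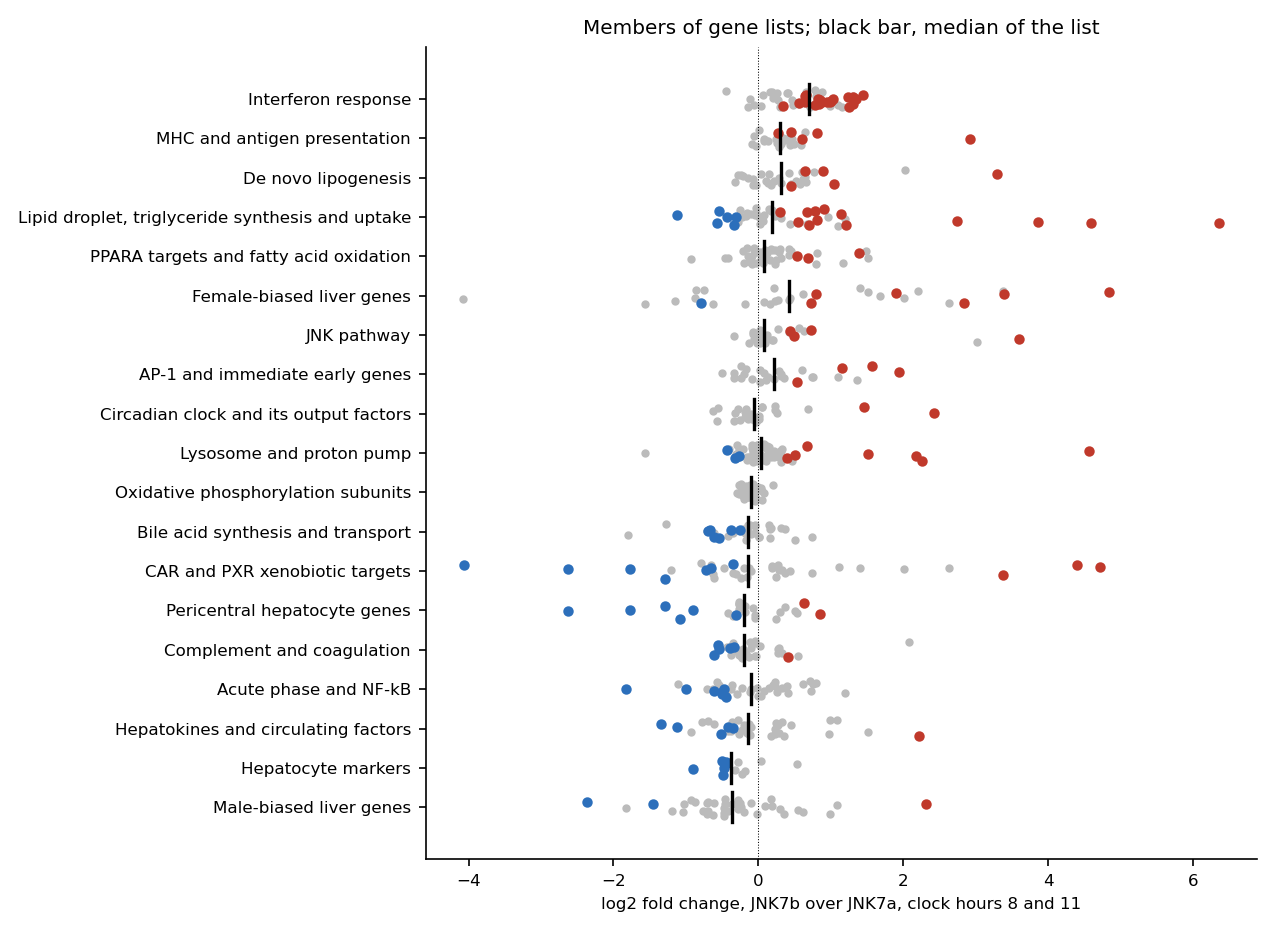
The log2 fold change of JNK7b over JNK7a for each tested member of 19 gene lists, with a black bar at the list's median. The interferon list has the median farthest above 0 of those described (0.705) and the hepatocyte markers lie below it (-0.377).

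The change was compared between hours 8 and 11. No gene had a different JNK7b against JNK7a change at the 2 hours by edgeR (0 of 15080), while 986 had an unadjusted p below 0.05, DESeq2 called 37 and limma voom 0. Taken alone, hour 8 gave 246 calls (1.63%), 164 higher (1.09%) and 82 lower (0.544%). Hour 11 gave 230 (1.53%), 153 higher (1.01%) and 77 lower (0.511%). For Atp6v0e2 the log2 fold change was 4.54 ± 0.34 at hour 8 and 4.59 ± 0.34 at hour 11, and for Mapk9 it was 0.78 ± 0.13 and 0.66 ± 0.15. A p that misses the threshold does not show that the changes are alike.

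The change was also set against other hours of the same groups, with different libraries. At hours 2, 5, 14 and 17, 10 JNK7b and 11 JNK7a libraries were compared, and at hours 20 and 23, 8 and 5. Hours 2, 5, 14 and 17 are not a run of neighbouring hours. They match a split of the JNK7b libraries seen in these same data, so the test of their difference is a description. An effect of hour cannot be told apart from another difference between those libraries. The first comparison called 1190 genes (7.16%), 729 higher (4.38%) and 461 lower (2.77%). The second called 1591 (9.57%), 867 higher (5.21%) and 724 lower (4.35%). The change at hours 8 and 11 differed from that at hours 2, 5, 14 and 17 for 471 of 16629 genes (2.83%), 222 upward (1.34%) and 249 downward (1.5%), and 273 of the 857 called genes were among them. It differed from that at hours 20 and 23 for 0 genes by edgeR, with 767 at an unadjusted p below 0.05, 5 by DESeq2 and 0 by limma voom. The first count was 182 without JNK7b 11 h replicate 1, 212 without JNK7b 11 h replicate 2, 243 without JNK7a 8 h replicate 2 and 271 without JNK7a 11 h replicate 1. Of the 503 genes that rose, 369 had the same sign at hours 2, 5, 14 and 17 and 492 at hours 20 and 23. Of the 354 that fell, 257 and 341 did.

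**Figure D4:**
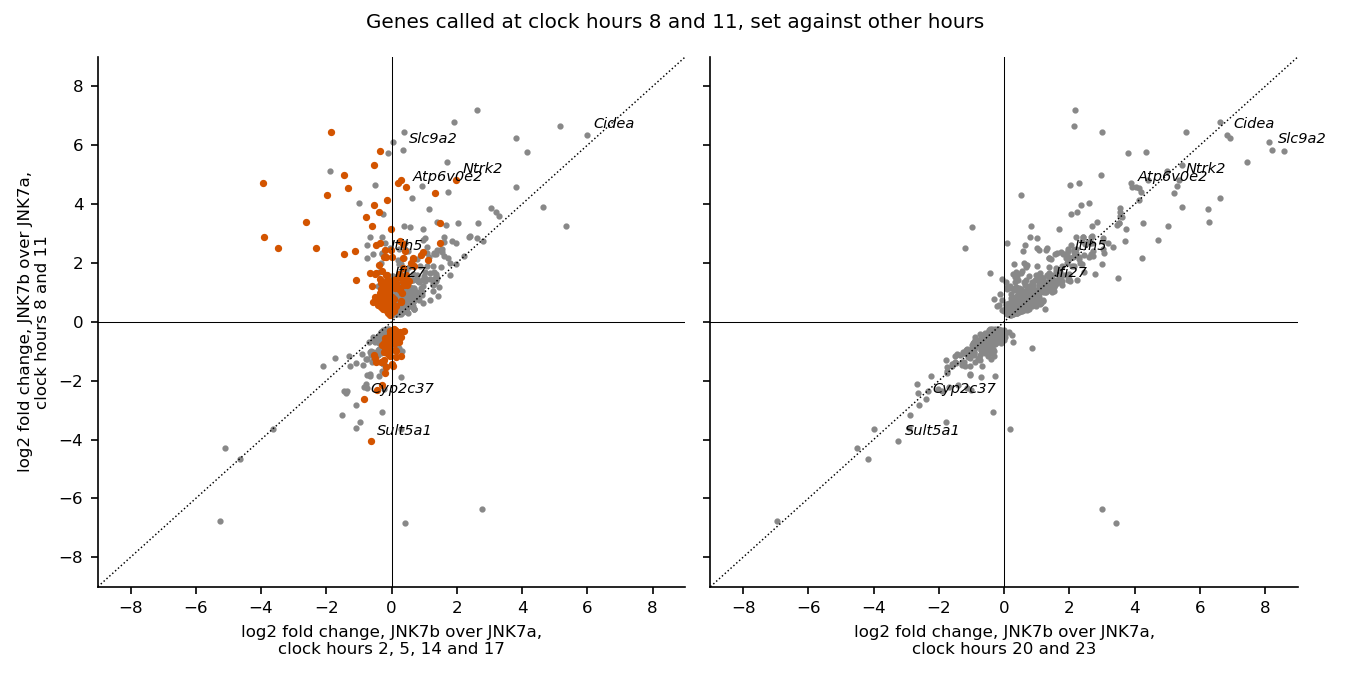
The log2 fold change of JNK7b over JNK7a at hours 8 and 11 for the 857 called genes, against that at hours 2, 5, 14 and 17 (left) and at hours 20 and 23 (right). Orange marks the 273 genes whose change differed by the test, all of them in the left panel.

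Some of the largest rises were absent from the other set of hours in level. Atp6v0e2 averaged 0.943 CPM in JNK7b and 0.689 CPM in JNK7a at hours 2, 5, 14 and 17, and 10.6 against 0.695 CPM at hours 20 and 23. Its change at hours 8 and 11 was larger than at hours 2, 5, 14 and 17 by 4.12 ± 0.39 on the log2 scale (adjusted p = 1.26e-08). Itih5 averaged 10.6 against 12.5 CPM and 58.7 against 15.0 CPM at those hours, a difference of 2.44 ± 0.24 (adjusted p = 2.9e-08). Slc9a2 averaged 0.0339 against 0.0122 CPM and then 3.43 against 0.0185 CPM. Its difference from the first hours was not called by the test, and its values there rest on 11 and 5 counts in all. Rian, a long RNA of the imprinted Dlk1-Dio3 region, averaged 12.0 against 1.68 CPM at hours 8 and 11, 0.216 against 1.27 CPM at hours 2, 5, 14 and 17 and 12.1 against 1.92 CPM at hours 20 and 23, a difference of 6.79 ± 0.72 (adjusted p = 4.77e-07). Meg3 of the same region gave 6.08 ± 0.90 (adjusted p = 0.000156). JNK7b libraries of hours 8, 11, 20 and 23 thus held higher levels of these genes than those of the other hours.

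Interferon genes followed the same hours. The list's median log2 fold change was 0.705 at hours 8 and 11, -0.197 at hours 2, 5, 14 and 17 and 0.507 at hours 20 and 23, and 21 of its 52 members differed from hours 2, 5, 14 and 17. Ifi27 averaged 113 against 130 CPM at hours 2, 5, 14 and 17 and 292 against 112 CPM at hours 20 and 23 (difference 1.43 ± 0.17, adjusted p = 1.39e-06). The genes that fell had counterparts: Baat averaged 242 against 244 CPM at hours 2, 5, 14 and 17 (difference -0.69 ± 0.12, adjusted p = 0.00117) and Fabp2 111 against 119 CPM (difference -1.08 ± 0.19, adjusted p = 0.00135). Fbxo9, Spp2, Thnsl2 and Klc4 differed in the same direction. Cyp2c37 was lower at all hours, 208 against 365 CPM at hours 2, 5, 14 and 17, but less so than at hours 8 and 11 (difference -1.75 ± 0.40, adjusted p = 0.0147).

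In the lipid droplet list, 20 of 44 tested members rose and 1 fell at hours 2, 5, 14 and 17, and 15 rose and 4 fell at hours 20 and 23. Of its members 9 differed between hours 8 and 11 and hours 2, 5, 14 and 17, with Fabp2, Dgat2, Slc27a2, Slc27a5 and Apob of the 6 that fell among them. Cidea averaged 17.7 against 0.274 CPM at hours 2, 5, 14 and 17 and 19.5 against 0.157 CPM at hours 20 and 23. Cidec averaged 60.5 against 4.47 CPM and 61.0 against 3.58 CPM. The difference from hours 2, 5, 14 and 17 was 0.33 ± 1.49 for Cidea (adjusted p = 0.975) and 0.79 ± 0.76 for Cidec (adjusted p = 0.695), so these data leave a wide interval. Jun and Dusp8 had log2 fold changes of 1.38 and 3.29 at hours 2, 5, 14 and 17.

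**Figure D5:**
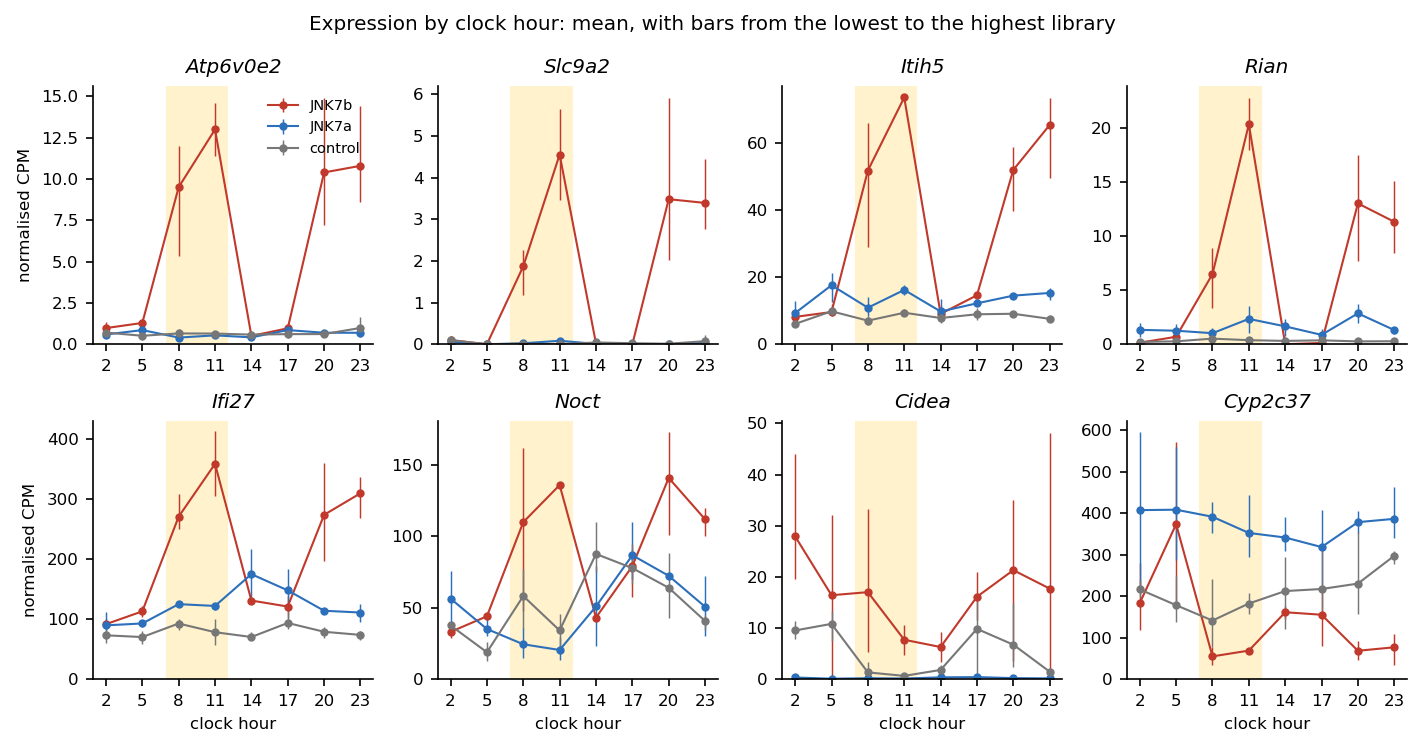
Mean normalised CPM by clock hour for 8 genes in control (grey), JNK7a (blue) and JNK7b (red), with bars from the lowest to the highest library and hours 8 to 11 shaded. In JNK7b, Atp6v0e2, Slc9a2, Itih5, Rian and Ifi27 are high at hours 8, 11, 20 and 23, while Cidea is above JNK7a at every set of hours.

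Control livers, which the comparison did not use, lay nearer to JNK7a for most called genes. Of the 503 genes that rose, the control mean was nearer JNK7a for 396 and nearer JNK7b for 107. Those 107 included Fitm1, Jun and Jund, named after their values were seen. The control mean lay between the groups for 366, below both for 123 and above both for 14, Cyp17a1 (27.9 CPM) among them. Of the 354 that fell, control was nearer JNK7a for 279 and nearer JNK7b for 75, and it lay between the groups for 264. Control also differs from both groups in the protein its label names.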

How the data were processed

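Poly(A)-selected RNA of whole liver was sequenced in paired reads, per the labels' protocols. cutadapt, Salmon and the mm10 build are named in the submitters' processing notes. The authors deposited estimated counts per gene, which need not be whole, and a table of TPM; no blank symbols or columns of other samples were found. How Salmon shares reads among near-identical genes bears on the Mup, Cyp2b, Cyp2c, Cyp2d, Slc22a, Ces2, Sult, H2 and immunoglobulin genes, which are uncertain one by one. Lines sharing a symbol (234 of 55487) were added, and estimated counts were rounded. Totals of the 11 libraries, from 26830000 to 34340000, limit the precision of low genes.

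Genes passing edgeR's filter were fitted with the quasi-likelihood test (edgeR 4.0.16 in R 4.3.3, robust, TMM scaling) with hour and group as terms (8 residual degrees of freedom). Differences between hours used a term for every group and hour, over 11 libraries or over the 45 libraries of JNK7a and JNK7b. The standard error is the log2 fold change over the root of the F value. Adjusted p-values are Benjamini-Hochberg over all genes tested, with a threshold of 0.05. Displayed CPM uses TMM scaling over all 69 libraries. Named genes have a mean of at least 1 CPM and no provisional symbol: the 12 largest rises and falls with 1 sign at both hours, up to 4 called members per list by p, both kinase genes, clock genes, and up to 6 genes per direction for each difference between hours. Other named genes were chosen after their values were seen. The members and lists were chosen with earlier results of these data known.

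Alternatives were median-ratio scaling, other filters, DESeq2 1.42.0, limma 3.58.1 (voom, or log2 TPM plus 1 or 0.1), all 69 libraries, each hour alone, a replicate block and leaving out each library. Leaving out JNK7b 8 h replicate 3 with JNK7a 8 h replicate 2 was chosen after seeing the data. The main test was tested on simulated data for this comparison with 14745 genes, where 54.5% of 2-fold and 80% of 4-fold changes were recovered, with 5 false calls of 139.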

Additional observations from a re-analysis of the deposited data

Results flagged for a closer look

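Of 222 pairs of a named gene and a group, 26 held 1 library apart from the rest of its group by Dixon's ratio of gap to range. Its cut-offs give about 1 in 20 by chance only for normally distributed values. The CPM values used were untransformed, some near 0, and the pairs share libraries, so the count is not set against chance. The library JNK7a 11 h replicate 3 stood above the rest of its group with 0.0994 CPM for Hapln1, 0.298 CPM for Cdhr2 and 1.29 CPM for Treh. The library JNK7a 8 h replicate 1 stood above the rest of its group with 0.101 CPM for Ighv1-15, 8.38 CPM for Ighv1-4, 36.3 CPM for Pltp and 163 CPM for Nr1i3. The library JNK7b 8 h replicate 3 stood above the rest of its group with 33.3 CPM for Cidea, 2.3 CPM for Phlda3, 91.1 CPM for Cidec, 358 CPM for Ugp2, 59.6 CPM for Plin4, 636 CPM for Gpam and 16600 CPM for Scd1. The library JNK7b 8 h replicate 3 stood below the rest with 1740 CPM for Rbp4. The library JNK7a 8 h replicate 3 stood above the rest of its group with 14.3 CPM for Obp2a, 7.79 CPM for Per1 and 2.57 CPM for Atf3. The library JNK7a 8 h replicate 3 stood below the rest with 568 CPM for Glul and 2.54 CPM for Slc27a1. The library JNK7a 8 h replicate 2 stood above the rest of its group with 680 CPM for Orm1 and 538 CPM for Fetub. The library JNK7a 8 h replicate 2 stood below the rest with 21.1 CPM for Irf7. The library JNK7b 8 h replicate 1 stood above the rest of its group with 12300 CPM for Trf. The library JNK7b 8 h replicate 1 stood below the rest with 597 CPM for Aldh3a2. The library JNK7b 11 h replicate 2 stood above the rest of its group with 133 CPM for Lpin1.

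The change of JNK7b against JNK7a at hours 8 and 11 differed from that at hours 2, 5, 14 and 17 for 47 of the 111 named genes, by the test of that difference in edgeR (adjusted p below 0.05). The values are differences of log2 fold changes. The limit on these sets of hours stated above holds here too. The difference was upward by 8.56 for Ighv1-15, 6.14 for Cdhr2, 5.97 for Catsperg2, 2.89 for Ntrk2, 4.57 for Kif22, 4.52 for Cyp2d12, 2.65 for Noct, 1.38 for Per1 and 1.43 for Ifi27. Further upward differences were 1.23 for Psmb9, 1.3 for Cmpk2, 0.87 for Stat2, 0.634 for H2-T22, 0.931 for Tap1, 6.08 for Meg3, 0.433 for Mapk9, 2.44 for Itih5 and 4.12 for Atp6v0e2. Further upward differences were 1.35 for Arsg, 1.56 for Galns, 0.386 for Grn, 6.79 for Rian, 3.1 for Cyfip2, 0.976 for Irf7, 1.76 for Usp18, 1.33 for Isg15 and 1.25 for Pltp. Downward differences were -3.71 for Sult5a1, -1.75 for Cyp2c37, -1.83 for Hnf4aos, -1.08 for Fabp2, -0.69 for Baat, -0.475 for Slc27a5, -0.46 for Slc10a1, -0.74 for Ugp2 and -0.517 for Mbl1. Further downward differences were -0.887 for Inhbc, -0.595 for Fetub, -0.437 for Rbp4, -0.846 for Cyp2e1, -0.38 for Apob, -0.428 for Ttr, -0.584 for Fbxo9, -1.45 for Spp2 and -0.822 for Thnsl2. Further downward differences were -0.571 for Klc4 and -0.815 for Nr1i3. For Ighv1-15, Cdhr2 and Catsperg2, which had few counts in some groups, the size depends on the prior count of the fit.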

How the results depend on the processing

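The 857 calls became 1514 with DESeq2, 1319 with all 69 libraries in the fit, 246 at hour 8 alone and 230 at hour 11 alone, and ran from 426 (without JNK7b 11 h replicate 2, 419 of them shared) to 879 (without JNK7a 8 h replicate 1) on leaving out single libraries. Hour 11 holds 2 JNK7b libraries, so leaving out either leaves 1, whose spread is then assumed to be that of the other groups. With a replicate block within hour 350 were called, 333 of them shared. Same-numbered libraries correlated at -0.197 to 0.0214 in their deviations from the mean of their group and hour. With so few libraries per mean these deviations constrain each other, so they cannot show whether the numbers pair the libraries. The count was 860 with median-ratio scaling, 904 with no filter, 842 at a mean of at least 1 CPM, 1192 with voom, and 596 and 578 on log2 TPM. The difference between hours 8 and 11 had 24 calls with no filter, 37 with DESeq2, 1 without both libraries that stood apart and 0 to 1 on leaving out single libraries. The difference from hours 2, 5, 14 and 17 went from 471 to 1029 with no filter, 771 with DESeq2 and 295 without both libraries, and ran from 182 to 555 on leaving out single libraries. The difference from hours 20 and 23 had 203 calls with no filter and 5 with DESeq2. The cause was not tested. None of the 111 genes followed through each alternative reversed its direction (101 of them on the TPM scale), nor did any of 34 other called genes named in the report (31 on the TPM scale). Of those 34, 31 lost their call on leaving out at least 1 single library. Genes below about 1 CPM rest on few counts per library.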

Other observations

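Called genes were spread over the chromosomes. Of 845 called genes with 1 matched position, the share of tested genes called ran from 3.76% on chromosome X to 6.91% on chromosome 16. Within 5 Mb of Mapk8, 4 of 74 tested genes were called (Actr8, Arhgap22, Btd and Hacl1, 1 higher and 3 lower). Within 5 Mb of Mapk9, 3 of 96 were called (Cyfip2, Olfr1372-ps1 and Zfp354a, 1 higher and 2 lower). Over all genes tested 5.68% were called, a share that neither neighbourhood exceeded. Cyfip2, which takes part in actin remodelling, was the one that rose, at 9.72, 8.16, 5.45, 19.1 and 14.4 CPM in JNK7b against 1.17 to 2.48 CPM in JNK7a (2.60 ± 0.28, adjusted p = 0.000182, edgeR). At hours 2, 5, 14 and 17 it averaged 1.6 against 2.23 CPM. These neighbours were chosen after their values were seen.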
